A study of Mus musculus with 3 samples.

Results

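Expression of 10 genes that encode secreted antagonists of Wnt signalling was followed across the cell populations of juvenile mouse long bone: *Wif1*, *Sfrp1*, *Sfrp2*, *Sfrp4*, *Sfrp5*, *Frzb*, *Dkk1*, *Dkk2*, *Dkk3* and *Sost*. They were taken by symbol from the 55422 genes of the count files, so all 10 of 10 named genes were found. The cells came from untreated male mice at post natal week 3. The labels give the strain as C57BL/6 and the tissue as bone, and the study's methods name wild-type mice as C57BL/6J. Metaphyseal replicates 1 and 2 held wild-type cells from dissected metaphyses after lineage-positive, CD45+ and CD117+ cells had been removed on magnetic beads. The *Pdgfra-GFP* library held GFP+ cells sorted from femur and tibia of males heterozygous for *Pdgfra*-H2B-GFP, a nuclear reporter of the platelet-derived growth factor receptor gene *Pdgfra*. The study's methods give its tissue as dissected metaphysis, and its results as metaphysis with epiphysis, so the tissue may differ from that of the metaphyseal libraries. The reporter selects cells by *Pdgfra* expression, and there is 1 such library, with no replicate. How many animals each library came from is not given in the sources used here, so the spread between libraries may be technical.

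Wnt proteins signal through Frizzled receptors and the co-receptors Lrp5 and Lrp6, and in bone this pathway is known for driving osteoblast formation. Wif1 and the secreted Frizzled-related proteins, to which *Frzb* also belongs, bind Wnt proteins outside the cell. Dkk1, Dkk2 and sclerostin, the product of *Sost*, bind the co-receptors instead, while Dkk3 is a divergent family member that is not thought to act through them in the same way.

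The libraries held 22082735 to 91747759 UMIs, where a UMI is a tag that counts each captured RNA molecule once. After the cell filters 2382, 2004 and 11242 cells remained, in the order metaphyseal replicate 1, metaphyseal replicate 2 and *Pdgfra-GFP* library, with median depths of 5330 to 6426 UMIs per cell. Each cell was given a population from fixed marker genes, none of which is a Wnt antagonist or another gene of the Wnt pathway, while 462 cells with few markers and 448 near the margin between populations stayed unassigned. Although the 2 depleted libraries carry the label of metaphyseal mesenchymal stromal cells, only 38 and 33 of their cells were gated as metaphyseal stroma, against 1033 cells in the *Pdgfra-GFP* library. The gate used markers such as *Postn*, *Limch1* and *Kcnk2* and demanded a margin over other populations. The graph clusters in which this population was the most common held 105 cells (28.6% so gated) and 60 cells (46.7%) in metaphyseal replicates 1 and 2. *Lepr Cxcl12* stroma, the marrow stroma rich in *Lepr* and *Cxcl12*, gave 761, 706 and 4486 cells, and capillary, sinusoidal and arterial endothelial cells were also numerous in the depleted libraries. Late osteoblasts, with *Dmp1* at 6529 and *Mepe* at 1580 CPM, numbered 8, 10 and 69, and septoclasts, with *Mmp9* at 10880 CPM, 17, 14 and 235. Outside the pan-endothelial list, 8 marker genes were higher in another population than the one they were meant to mark: *Cd55*, *Aspn*, *Edil3*, *Matn1*, *Ucma*, *Ly6c1*, *Mcam* and *Esm1*. The widest gap was that of *Esm1*, a capillary marker, at 1039 CPM in *Lepr Cxcl12* stroma and 28.1 CPM in capillary endothelial cells. The *Pdgfra-GFP* library shared 9 and 10 cell barcodes with the metaphyseal libraries, where 3.94 and 3.32 were expected by chance.

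Levels are given as CPM, in which the UMIs of a gene are scaled to a common total of all UMIs of its population, and in the same order of libraries; intervals are exact 95% intervals that cover counting error only. Because 10x libraries hold RNA from burst cells, each share of cells with a UMI is set beside that in erythroid cells, which should lack these genes. Barcodes with at most 100 UMIs, which sample this free RNA, held *Wif1* at 152, 138 and 544 CPM and *Sfrp4* at 154, 148 and 251 CPM, while *Sost* was at 0.465, 0 and 1.20 CPM there. That *Wif1* is high in metaphyseal stroma, *Dkk1* in late osteoblasts and *Sfrp5* in chondrocytes was known when the genes were chosen, so these 3 patterns are described without a test.

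**Figure D1:**
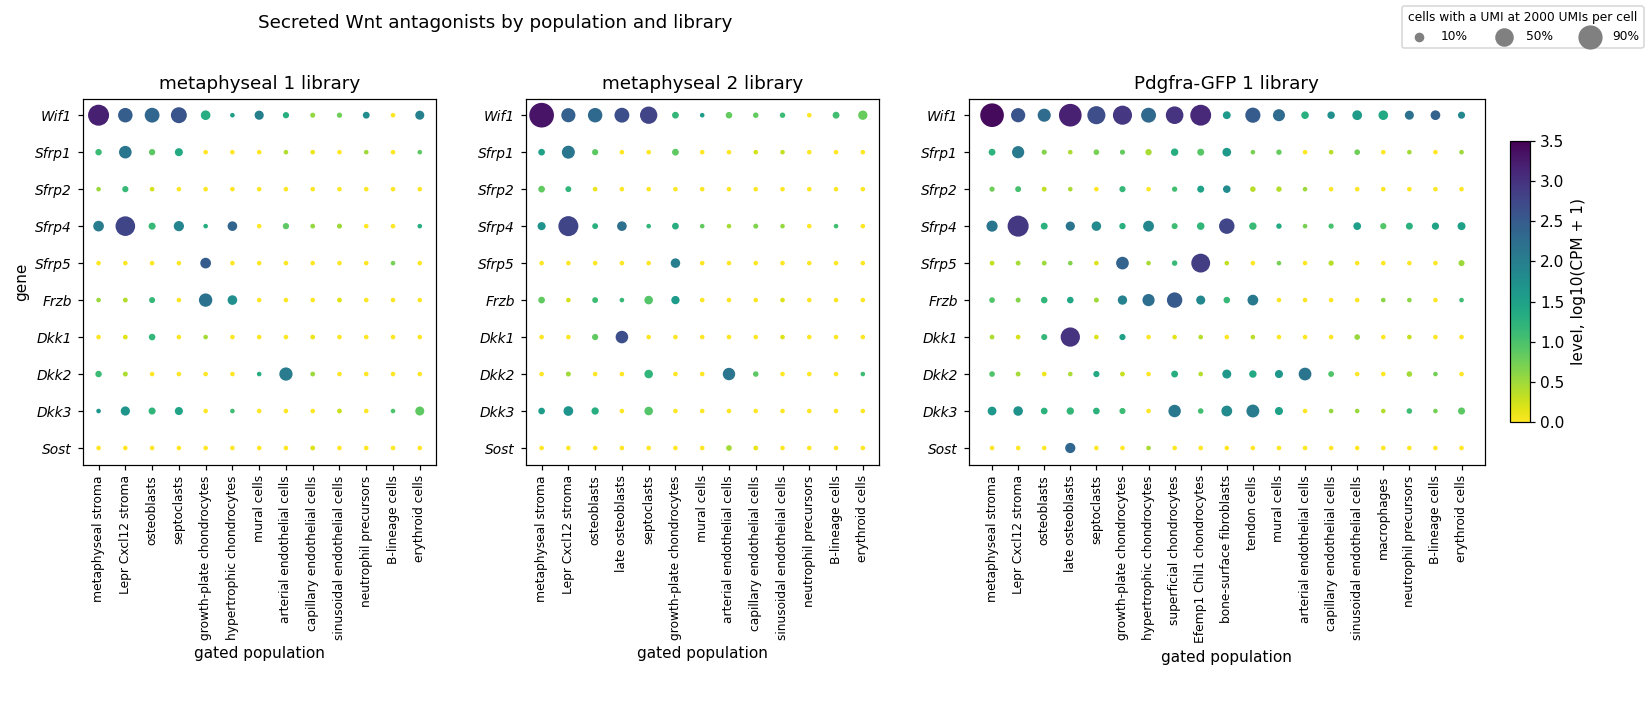
Each dot is a gene (vertical axis) in a gated population with at least 10 cells (horizontal axis) of 1 library; colour gives the level as log10(CPM + 1) and dot area the share of cells with a UMI after thinning to 2000 UMIs per cell. *Wif1* fills many mesenchymal populations with the largest dots in metaphyseal stroma, whereas *Sfrp1* and *Sfrp4* centre on *Lepr Cxcl12* stroma, *Dkk2* on arterial endothelial cells and *Sost* on late osteoblasts of the *Pdgfra-GFP* library.

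The antagonists were spread unequally over the populations, and several drew most of their RNA from a single one. *Lepr Cxcl12* stroma gave 92.5%, 91.5% and 82.1% of the *Sfrp1* UMIs of the 3 libraries and 91.4%, 93.7% and 84.7% of the *Sfrp4* UMIs, from 31.95%, 35.2% and 39.9% of the cells. Arterial endothelial cells gave 68.3%, 65.7% and 15.4% of the *Dkk2* UMIs from 3.69%, 3.59% and 0.792% of the cells. *Sost* had 123 of the 127 UMIs of the *Pdgfra-GFP* library in 69 late osteoblasts (0.614% of its cells). Metaphyseal stroma, in contrast, held 18.15%, 21.97% and 34.2% of the *Wif1* UMIs, so most *Wif1* RNA lay outside the population with its highest level.

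*Wif1* (Wnt inhibitory factor 1; chromosome 10:121033960-121100650, plus strand, GRCm38) had its highest level in metaphyseal stroma of every library. It stood there at 1536 (1420 to 1659), 2093 (1938 to 2256) and 2553 (2514 to 2592) CPM, with a median of 10, 14 and 13 UMIs per cell. Marrow stroma, osteoblasts, late osteoblasts and septoclasts all contained it at lower levels. *Lepr Cxcl12* stroma was at 290, 264 and 392.5 CPM, osteoblasts at 222, 209 and 190 CPM, and septoclasts, the cartilage-resorbing cells of the chondro-osseous border, at 379, 630 and 475 CPM. Late osteoblasts reached 449 CPM in metaphyseal replicate 2 and 1495 CPM in the *Pdgfra-GFP* library, and 596 CPM in the 8 cells of metaphyseal replicate 1. Septoclasts lay above *Lepr Cxcl12* stroma in each library, but in metaphyseal replicate 1 their intervals overlapped (294 to 481 against 275 to 306 CPM). In CPM, osteoblasts lay below *Lepr Cxcl12* stroma in each library without overlap of the counting intervals. This order was not seen in edgeR's normalized fit. There the log2 difference from metaphyseal stroma was -2.51 ± 0.72 for osteoblasts and -2.76 ± 0.72 for *Lepr Cxcl12* stroma.

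In 65.8%, 93.9% and 85.6% of metaphyseal stroma cells (median depth 6380.5 UMIs) a *Wif1* UMI was found after thinning to 2000 UMIs per cell, and in 89.5%, 97.0% and 92.2% before thinning. Erythroid cells (median depth 8850.5 UMIs) had thinned shares of 8.33%, 9.09% and 3.85%, and unthinned shares of 16.7%, 9.09% and 20.8%. Other blood cells of the *Pdgfra-GFP* library held *Wif1* as well. It had 148 UMIs in 23 of 84 neutrophil precursors, and 57 UMIs in 5 of 56 B-lineage cells, 28 of them in the highest cell. Erythroid cells alone may thus understate the *Wif1* background. The distribution within populations differed as well. In *Lepr Cxcl12* stroma the median cell had 0 *Wif1* UMIs and the 10% of cells with the most UMIs carried 62.2%, 65.8% and 72.6% of them, against 41.0%, 25.4% and 30.4% in metaphyseal stroma. Endothelial levels were far lower, at 18.9, 5.86 and 17.8 CPM in arterial cells, below those of erythroid cells in 2 of 3 libraries (94.0, 5.56 and 76.0 CPM), and are read as background.

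Cartilage was where the libraries disagreed on *Wif1*. Growth-plate chondrocytes stood at 19.98 and 14.2 CPM in the metaphyseal libraries (30 and 31 cells) and at 884 (867 to 901) CPM in the *Pdgfra-GFP* library (1256 cells), where the population alone gave 20.6% of all *Wif1* UMIs. The chondrocytes also differed in zone genes: *Col10a1*, a collagen of hypertrophic cartilage, was at 9343, 9250 and 399 CPM and *Prg4*, the lubricin gene of the joint surface, at 0, 45.7 and 235 CPM, while *Matn3* (matrilin 3) was at 2691, 2725 and 2825 CPM. The part of these zone differences, or of epiphyseal tissue in the *Pdgfra-GFP* library, in the *Wif1* gap was not tested. Further populations of the *Pdgfra-GFP* library gated as chondrocytes were high too, with 944 CPM in superficial chondrocytes (474 cells) and 1287 CPM in *Efemp1 Chil1* chondrocytes (83 cells).

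**Figure D2:**
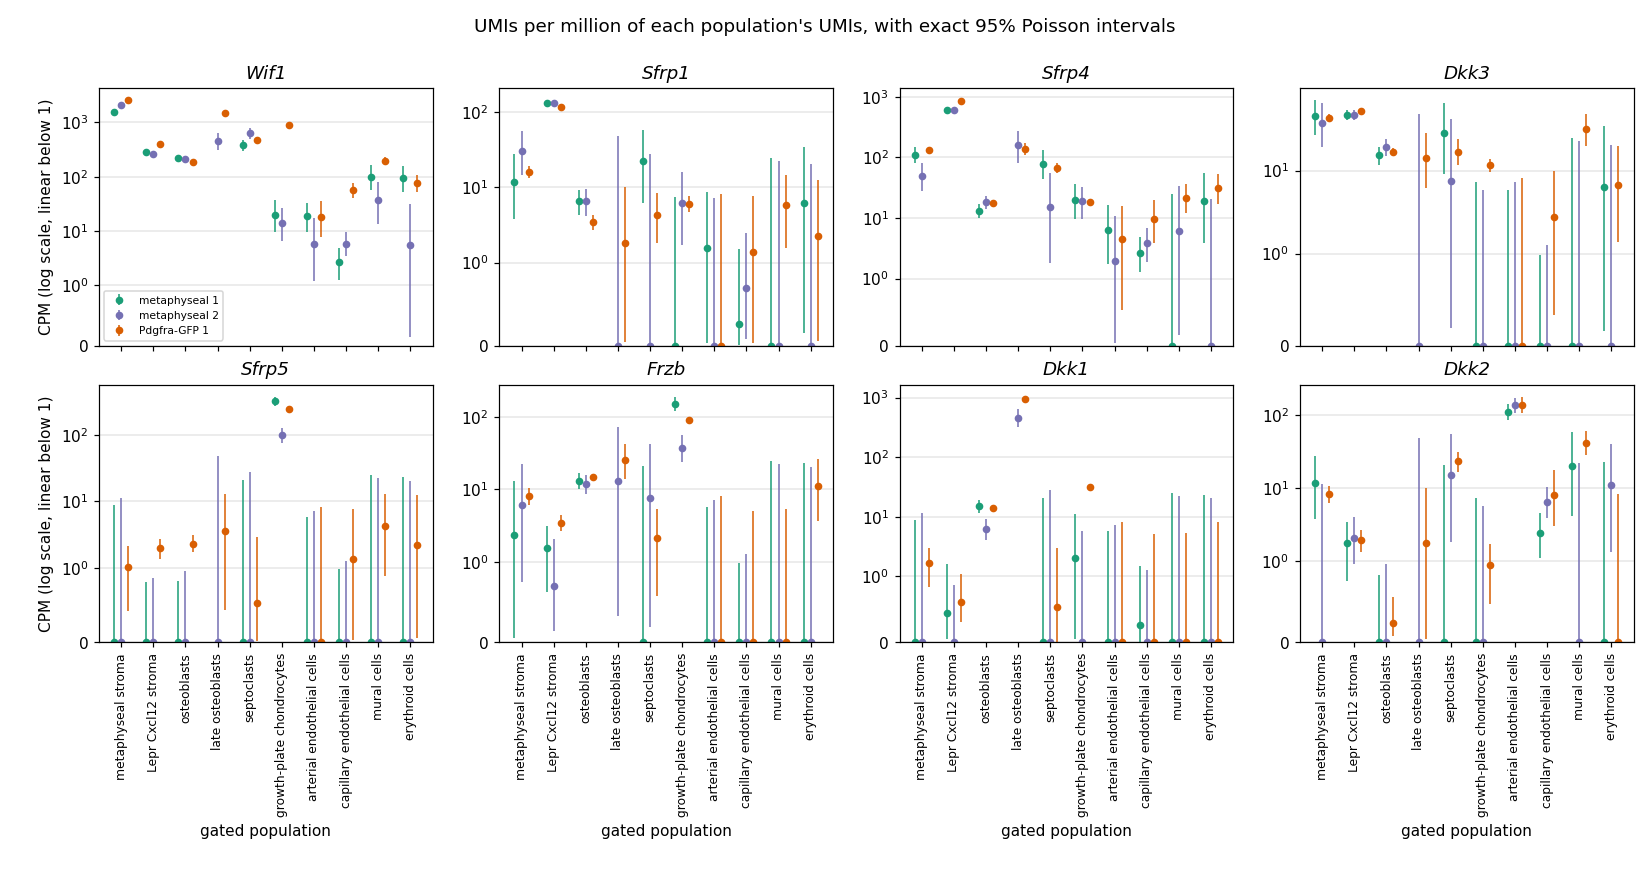
Level of 8 members (CPM, logarithmic above 1 and linear below) in 10 gated populations with at least 10 cells, a point per library with its exact 95% Poisson interval. The 3 libraries lie close together for *Sfrp1* and *Sfrp4* in *Lepr Cxcl12* stroma and for *Dkk2* in arterial endothelial cells, and far apart for *Wif1* in growth-plate chondrocytes, at 19.98, 14.2 and 884 CPM.

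*Sfrp1* (chromosome 8:23411502-23449632, plus strand) and *Sfrp4* (chromosome 13:19623104-19632994, plus strand), which encode Frizzled-related proteins, had most of their UMIs in *Lepr Cxcl12* stroma. *Wif1*, at 290, 264 and 392.5 CPM, was above *Sfrp1* in this population. *Sfrp1* stood there at 132, 134 and 117 CPM, and at 11.9, 30.9 and 16.2 CPM in metaphyseal stroma. All 3 values of the marrow population lay above all 3 of the metaphyseal one. *Sfrp4* was at 614, 603 and 864 CPM in *Lepr Cxcl12* stroma, and at 112, 49.5 and 131 CPM in metaphyseal stroma, again without overlap. In metaphyseal replicate 1 the 8 late osteoblasts were at a similar level (649 CPM). A thinned *Sfrp4* UMI was present in 56.6%, 59.2% and 66.3% of *Lepr Cxcl12* cells (median depth 4097 UMIs; 77.8%, 82.4% and 78.5% unthinned), against 0%, 0% and 5.77% of erythroid cells (8.33%, 0% and 9.43% unthinned). Unlike *Wif1*, *Sfrp4* was carried by the typical cell, with a median of 3, 3 and 2 UMIs.

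The comparison of *Lepr Cxcl12* stroma with metaphyseal stroma asks how antagonist expression differs between marrow and growth-plate-adjacent stroma, and was fitted over 12599 genes with edgeR's quasi-likelihood test, of which 22.9% passed at an adjusted p of 0.05. All 10 members passed the filter on low counts, *Sost* only through the late osteoblasts. *Sost* is therefore described without a test throughout. Of the 8 members beside *Wif1* and *Sost*, 3 were higher and 2 lower in *Lepr Cxcl12* stroma, and their median log2 fold change was 0.44, beside 0.08 over all genes tested. *Sfrp1* was higher by 2.78 ± 0.29 (log2 fold change ± SE; adjusted p = 2.08e-09, edgeR) and *Sfrp4* by 2.81 ± 0.35 (adjusted p = 9.02e-08), each in 3 of 3 libraries. These 2 differences held under every alternative run, with adjusted p of at most 0.000315 and 0.00397. *Sfrp2*, at 13, 15.3 and 9.80 against 2.37, 6.18 and 4.69 CPM, was higher by 1.76 ± 0.62 (adjusted p = 0.0430, edgeR), a call that was lost without either metaphyseal library (adjusted p = 0.18 and 0.14), without the library block and in DESeq2 (0.79).

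*Frzb* and *Dkk2* went the other way. *Frzb* was at 1.54, 0.706 and 3.43 CPM in *Lepr Cxcl12* stroma and 2.37, 6.18 and 8.03 CPM in metaphyseal stroma, and fell by 1.43 ± 0.45 on the log2 scale (adjusted p = 0.0210, edgeR). The call was lost in DESeq2, without the block, and without metaphyseal replicate 2 (adjusted p = 0.093) or the *Pdgfra-GFP* library (0.42). *Dkk2* was at 1.76, 2.12 and 1.94 against 11.9, 0 and 8.33 CPM, lower in 2 of 3 libraries, and fell by 1.91 ± 0.45 (adjusted p = 0.00137, edgeR; 0.29 without the *Pdgfra-GFP* library and 0.43 with graph clusters). *Dkk3* was nearly level between these populations, at 46.5, 47.3 and 53.1 against 45.1, 37.1 and 43.2 CPM. *Wif1*, described without a call, stood 2.76 ± 0.72 log2 units lower in *Lepr Cxcl12* stroma. The same metaphyseal stroma sums serve as the reference in 3 further comparisons, so results of these 4 comparisons are not independent of each other.

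Within *Lepr Cxcl12* stroma the cells with *Wif1* and those with *Sfrp4* were partly different cells. In metaphyseal replicate 1 a cluster of 224 cells had *Wif1* at 688 and *Sfrp4* at 275 CPM, and the 2 other large clusters had *Wif1* at 100 and 95.1 and *Sfrp4* at 779 and 830 CPM. Metaphyseal replicate 2 showed the same arrangement, with 849 and 215 CPM in a cluster of 129 cells against 88.7 and 126 CPM of *Wif1* and 709 and 720 CPM of *Sfrp4* in the others. In the *Pdgfra-GFP* library *Wif1* and *Sfrp4* were at 1824 and 152 CPM in a cluster of 356 cells and at 619 and 377 CPM in one of 664 cells, and the 4 other clusters had *Wif1* at 50.4 to 207 and *Sfrp4* at 921 to 1422 CPM. The *Wif1*-rich clusters were thus the ones with the lowest *Sfrp4* in each library. Clusters were computed without the Wnt antagonists. The *Wif1*-rich clusters also had less *Lepr* (596, 530 and 258 CPM, against 768.5 to 851, 686 to 809.5 and 383 to 585 CPM in the other clusters) and more *Spp1*, the osteopontin gene (4389, 4819 and 11320 CPM). The 356 cells shared their graph cluster with 473 cells gated as metaphyseal stroma and had *Postn* at 141 CPM, and the part of that boundary in the result was not tested beyond a stricter gate.

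Counted cell by cell at 2000 UMIs, *Sfrp4* was found in 42.6%, 49.2% and 48.5% of *Lepr Cxcl12* cells that had a *Wif1* UMI (216, 189 and 1131 cells) and in 62.2%, 62.9% and 72.9% of those without. With a stricter gate margin, chosen after the result was seen, the shares were 47.2%, 51.1% and 52.4% against 62.2%, 63.4% and 73.4%. *Sfrp1* showed no such order: 22.7%, 20.1% and 21.9% of cells with a *Wif1* UMI also had *Sfrp1*, against 19.3%, 22.2% and 17.5% of those without.

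**Figure D3:**
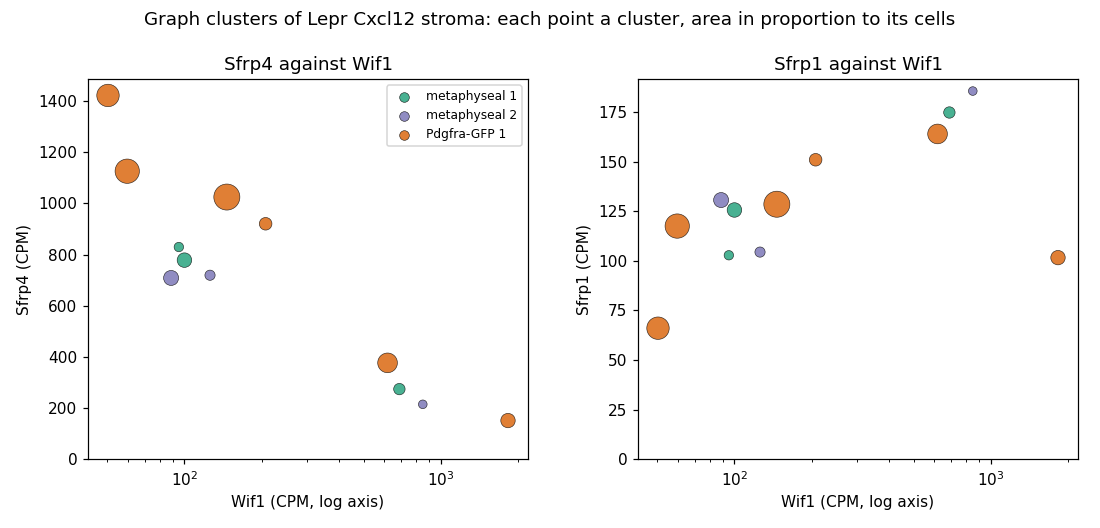
Each point is a graph cluster of *Lepr Cxcl12* stroma with at least 50 such cells, with *Wif1* on a logarithmic horizontal axis and *Sfrp4* (left) or *Sfrp1* (right) on the vertical axis, all in CPM; colour gives the library and point area the number of cells. *Sfrp4* falls from 1422 to 152 CPM as *Wif1* rises from 50.4 to 1824 CPM in the *Pdgfra-GFP* library, and *Sfrp1* shows no single trend.

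Osteoblasts were compared with metaphyseal stroma to follow the antagonists along bone formation. They carried less of the Frizzled-related genes of the marrow and more *Frzb* and *Dkk1*. Of the 8 members beside *Wif1* and *Sost*, 2 were higher and 3 lower, with a median log2 fold change of -0.77 beside -0.02 over all genes, and 31.4% of all genes passed. *Frzb* was at 13.3, 11.7 and 14.7 CPM in osteoblasts and rose by 1.95 ± 0.40 (adjusted p = 0.000346, edgeR), a call lost with graph clusters (adjusted p = 0.62). *Dkk1* was at 14.8, 6.25 and 13.7 CPM in osteoblasts and at 0, 0 and 1.67 CPM in metaphyseal stroma, and rose by 4.25 ± 0.53 (adjusted p = 4.34e-07, edgeR), though not in DESeq2 (0.32). *Sfrp4*, at 13.02, 18.2 and 17.7 CPM, fell by 1.84 ± 0.37 on the log2 scale (adjusted p = 0.000180, edgeR; at most 0.0439 under the alternatives).

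*Sfrp1*, at 6.51, 6.52 and 3.43 CPM in osteoblasts, fell by 1.11 ± 0.33 on the log2 scale (adjusted p = 0.00977, edgeR), and this call was lost without metaphyseal replicate 2 (0.083) or the *Pdgfra-GFP* library (0.25), without the block and in DESeq2. *Dkk2* had 5 UMIs in the 2214 osteoblasts, all in the *Pdgfra-GFP* library, and fell by 4.39 ± 0.63 (adjusted p = 1.33e-06, edgeR; 0.32 with graph clusters), in 2 of 3 libraries. Osteoblasts were not uniform for *Wif1*. In the *Pdgfra-GFP* library the largest cluster (1149 cells) had 74.3 CPM, a further one (377 cells) 233 CPM, a cycling one (75 cells, *Mki67* at 129 CPM) 592 CPM, and one with *Postn* at 449 CPM (88 cells) 1816 CPM. *Col1a1*, the main bone collagen gene, ran in the opposite order over these 4 clusters, at 103200, 70270, 29980 and 24660 CPM.

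*Dkk1* (chromosome 19:30545863-30549665, minus strand) and *Sost* (chromosome 11:101962458-101967015, minus strand), whose products bind Lrp co-receptors, both had their highest level in late osteoblasts, the matrix-embedding cells on the way to osteocytes. *Dkk1* was at 106 CPM in 8 cells, 462 (322 to 642) CPM in 10 cells and 944 (865 to 1029) CPM in 69 cells, with 8, 35 and 526 UMIs. Its level in late osteoblasts was above that of every other population in each library. With graph clusters in place of the gate, the mean was 335.6 CPM, against 703 CPM. Both are means over metaphyseal replicate 2 and the *Pdgfra-GFP* library, without the 8 cells of metaphyseal replicate 1. A *Dkk1* UMI was found in 12.5%, 20% and 54.4% of thinned late osteoblasts (median depth 6899 UMIs; 25%, 30% and 68.1% unthinned) and in 0 of 76 erythroid cells, which allows a share of up to 4.74% (exact interval). *Sost* had 123 UMIs (221 CPM, 184 to 264) in late osteoblasts of the *Pdgfra-GFP* library and 1 UMI in its 1817 osteoblasts, a ratio of 4629 with a counting interval from 816 to 184300. The 7 cells with the most *Sost* held 82.9% of these UMIs. In the metaphyseal libraries the 18 late osteoblasts had 0 *Sost* UMIs, which allows levels of up to 48.9 and 48.7 CPM by the exact interval. The 2 *Sost* UMIs of each of these libraries were in capillary or arterial endothelial cells.

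The bases before the gene are shown for these 2 genes, which shared their population of highest level, and for *Sfrp5* of cartilage. They were taken from RefSeq on the gene's own strand (build GRCm38.p6), from 250 bases before the RefSeq start up to the gene's outermost annotated base: 81 bases at chr19:30549666-30549746 for *Dkk1*, and 250 bases at chr11:101967016-101967265 for *Sost* and at chr19:42202253-42202502 for *Sfrp5*. Capitals mark the letters CTTTGA, the core bound by the TCF and LEF factors of the Wnt pathway, and TGTGGT, the core bound by RUNX factors of bone and cartilage, on either strand.
Dkk1: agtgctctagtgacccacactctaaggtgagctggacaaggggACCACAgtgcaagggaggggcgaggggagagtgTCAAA
Sost: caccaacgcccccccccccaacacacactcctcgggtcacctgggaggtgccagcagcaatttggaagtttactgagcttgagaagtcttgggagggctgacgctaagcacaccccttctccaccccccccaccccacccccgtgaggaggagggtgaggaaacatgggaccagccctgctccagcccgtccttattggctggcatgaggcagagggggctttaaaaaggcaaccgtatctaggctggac
Sfrp5: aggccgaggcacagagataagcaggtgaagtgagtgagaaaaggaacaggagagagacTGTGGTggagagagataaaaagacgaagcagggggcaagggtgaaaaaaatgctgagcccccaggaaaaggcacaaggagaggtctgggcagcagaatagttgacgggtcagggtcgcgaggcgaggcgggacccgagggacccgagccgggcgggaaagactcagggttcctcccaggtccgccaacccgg

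*Dkk1* held the TCF and LEF letters 2 times, reading along the gene at -117 and on the opposite strand at -174 from the RefSeq start, and the RUNX letters on the opposite strand at -207. The copy at -117 and the last base of the copy at -174 lie within the gene as annotated by Gencode and are not in the printed bases. Over all 27025 promoters searched, counting 250 bases before and 50 after the start, 16.2% held CTTTGA at least once and 1.81% at least 2 times, and 16.9% held TGTGGT. *Sfrp5* held the second motif at -192, and *Frzb*, not printed, the first at -95. *Sost* held neither, nor did *Wif1*, *Sfrp2* and *Dkk2*, whose sequences are not printed, and no promoter was matched for *Sfrp1*, *Sfrp4* and *Dkk3*. Such a match describes the letters only and does not show binding.

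Late osteoblasts were compared with osteoblasts over metaphyseal replicate 2 and the *Pdgfra-GFP* library, as the 8 cells of metaphyseal replicate 1 were below the minimum of 10. Here 10.3% of all genes passed, with a median log2 fold change of -0.27, and of the 8 members beside *Dkk1* and *Sost* 1 was higher and 0 lower, with a median of 0.45. *Sfrp4*, at 158 and 140 CPM in late osteoblasts, was higher by 2.59 ± 0.49 (adjusted p = 0.000263, edgeR) in 2 of 2 libraries, but not with graph clusters (adjusted p = 0.25). Few cells carried it: 12 UMIs came from 3 of 10 cells in metaphyseal replicate 2. In the *Pdgfra-GFP* library 78 UMIs came from 15 of 69 cells, and 7 cells held 89.7% of them. *Dkk1* stood 5.54 ± 0.37 log2 units higher, as a description, and *Wif1* was 1.14 higher without passing (adjusted p = 0.49, edgeR).

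Antagonists met in the same late osteoblasts. Of 68 late osteoblasts of the *Pdgfra-GFP* library thinned to 2000 UMIs, 37 had a *Dkk1* UMI, 53 a *Wif1* UMI and 8 a *Sost* UMI. All 8 *Sost* cells also had *Dkk1* and *Wif1* UMIs, and *Wif1* was found in 91.9% of cells with and 61.3% of cells without *Dkk1*. With 1 library there is no replicate of these counts.

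Septoclasts were compared with metaphyseal stroma because the study asks how septoclasts relate to metaphyseal stromal cells. None of the 8 members beside *Wif1* and *Sost* passed edgeR's test, against 5.27% of all genes, and none passed in DESeq2. The unadjusted p of edgeR was under 0.05 for 5 of these members and for 1878 of the 12599 genes tested. The median log2 fold change of the 8 members was -1.45, beside -0.05 over all genes. *Sfrp4* was at 79.2, 15.2 and 67.3 CPM, *Dkk3* at 28.3, 7.59 and 17.0 CPM and *Sfrp1* at 22.6, 0 and 4.24 CPM in septoclasts, so most values were below those of metaphyseal stroma. *Dkk2* was the exception, at 0, 15.2 and 23.3 CPM in septoclasts against 11.9, 0 and 8.33 CPM, with a log2 fold change of 1.30 ± 0.47 (adjusted p = 0.12, edgeR). Without the filter on low counts *Sfrp1*, *Sfrp2*, *Dkk2* and *Dkk3* passed (adjusted p = 0.037, 0.0074, 0.030 and 0.0070), *Sfrp2* on 0 UMIs in the septoclasts of every library. *Sfrp1* also passed without metaphyseal replicate 1 (0.029) and *Sfrp4* with a stricter gate (0.0061). The metaphyseal libraries gave only 17 and 14 septoclasts, which limits this comparison. *Wif1* stood 2.17 ± 0.75 log2 units lower in septoclasts, as a description.

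*Sfrp5* (chromosome 19:42197971-42202252, minus strand) and *Frzb* (chromosome 2:80411970-80447625, minus strand), 2 genes of the Frizzled-related family, had their highest levels in populations gated as chondrocytes. *Wif1* was above both in growth-plate chondrocytes of the *Pdgfra-GFP* library, at 884 CPM, but not in those of the metaphyseal libraries. *Sfrp5* stood at 316, 99.3 and 239 CPM in growth-plate chondrocytes and at 0, 0 and 1.06 CPM in metaphyseal stroma. Against a floor of 3 UMIs per library it was 44.3-fold and 10.7-fold higher in metaphyseal replicates 1 and 2, counting error aside. Few cells carried it. The 10% of growth-plate chondrocytes with the most UMIs held 93.0%, 87.3% and 73.3% of them, and in metaphyseal replicate 1 a single cell had 85 of 158. A *Sfrp5* UMI was found in 13.3%, 9.68% and 20.5% of thinned chondrocytes (median depth 9203 UMIs; 30%, 29.0% and 38.0% unthinned) against 0%, 0% and 1.92% of erythroid cells. Its highest level, 744 (680 to 812) CPM, was in the 83 *Efemp1 Chil1* chondrocytes of the *Pdgfra-GFP* library, where 51.8% of thinned cells had a UMI (73.5% unthinned; median depth 7710 UMIs).

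*Frzb* covered more of the populations gated as chondrocytes. It was at 152, 37.8 and 90.7 CPM in growth-plate chondrocytes, at 330 (309 to 353) CPM in superficial chondrocytes and at 176 (142 to 215) CPM in hypertrophic chondrocytes of the *Pdgfra-GFP* library, and at 121 (97.0 to 149) CPM in its tendon cells. The order superficial, hypertrophic, tendon and *Efemp1 Chil1* cells (72.9 CPM) held in that library, although the intervals of hypertrophic and tendon cells overlapped. Within superficial chondrocytes *Frzb* was highest in a cluster rich in *Col1a1* and low in *Col2a1*, described below. A *Frzb* UMI was found in 32.6% of superficial chondrocytes at 2000 UMIs (50.8% unthinned; median depth 5107 UMIs) and in 0% of thinned erythroid cells (3.77% unthinned in that library).

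Growth-plate chondrocytes were compared with metaphyseal stroma as cartilage against bone stroma. Cells gated as hypertrophic chondrocytes were not in this comparison, but cells rich in *Col10a1* were. The compared chondrocytes had *Col10a1* at 9343, 9250 and 399 CPM. In the *Pdgfra-GFP* library they included a cluster of 81 cells with *Col10a1* at 3906 CPM. The chondrocytes of the *Pdgfra-GFP* library included 68 cells with *Prg4* at 3627 CPM and *Frzb* at 614 CPM. Their graph cluster was mostly gated as superficial chondrocytes, and they counted as such where graph clusters replaced the gate. Of all genes 32.8% passed, and of the 7 members beside *Wif1*, *Sfrp5* and *Sost* 2 were higher and 4 lower, with a median log2 fold change of -1.14 beside -0.01 over all genes. *Frzb* rose by 4.29 ± 0.40 (adjusted p = 7.94e-10, edgeR) in 3 of 3 libraries and passed under every alternative run, with adjusted p of at most 0.00414. *Dkk1*, with 1, 0 and 362 UMIs in growth-plate chondrocytes and 0, 0 and 11 in metaphyseal stroma, rose by 4.45 ± 0.53 (adjusted p = 1.43e-07, edgeR), but not without the *Pdgfra-GFP* library (0.57) or in DESeq2 (0.42). Its 362 UMIs came from 66 of 1256 cells. *Dkk3*, at 0, 0 and 11.6 CPM in chondrocytes, fell by 1.83 ± 0.42 (adjusted p = 0.000815, edgeR; at most 0.0205 under the alternatives) and *Sfrp4*, at 19.98, 18.9 and 18.1 CPM, fell by 2.15 ± 0.44 (adjusted p = 0.000166, edgeR; at most 0.0438).

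*Dkk2*, with 0, 0 and 11 UMIs in growth-plate chondrocytes, fell by 2.73 ± 0.60 (adjusted p = 0.000431, edgeR; 0.14 without the *Pdgfra-GFP* library and 0.072 with graph clusters). *Sfrp1*, at 0, 6.31 and 6.00 CPM, fell by 1.13 ± 0.37 (adjusted p = 0.0168, edgeR), and this call was lost without metaphyseal replicate 2 (0.12) or the *Pdgfra-GFP* library (0.090), without the block, with a stricter gate and in DESeq2. *Sfrp2* did not pass (1.46 ± 0.63; adjusted p = 0.078, edgeR). As descriptions, *Sfrp5* stood 8.74 ± 0.56 log2 units higher and *Wif1* 3.30 ± 0.77 lower, the latter a mean over libraries whose chondrocyte levels differed as given above.

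**Figure D4:**
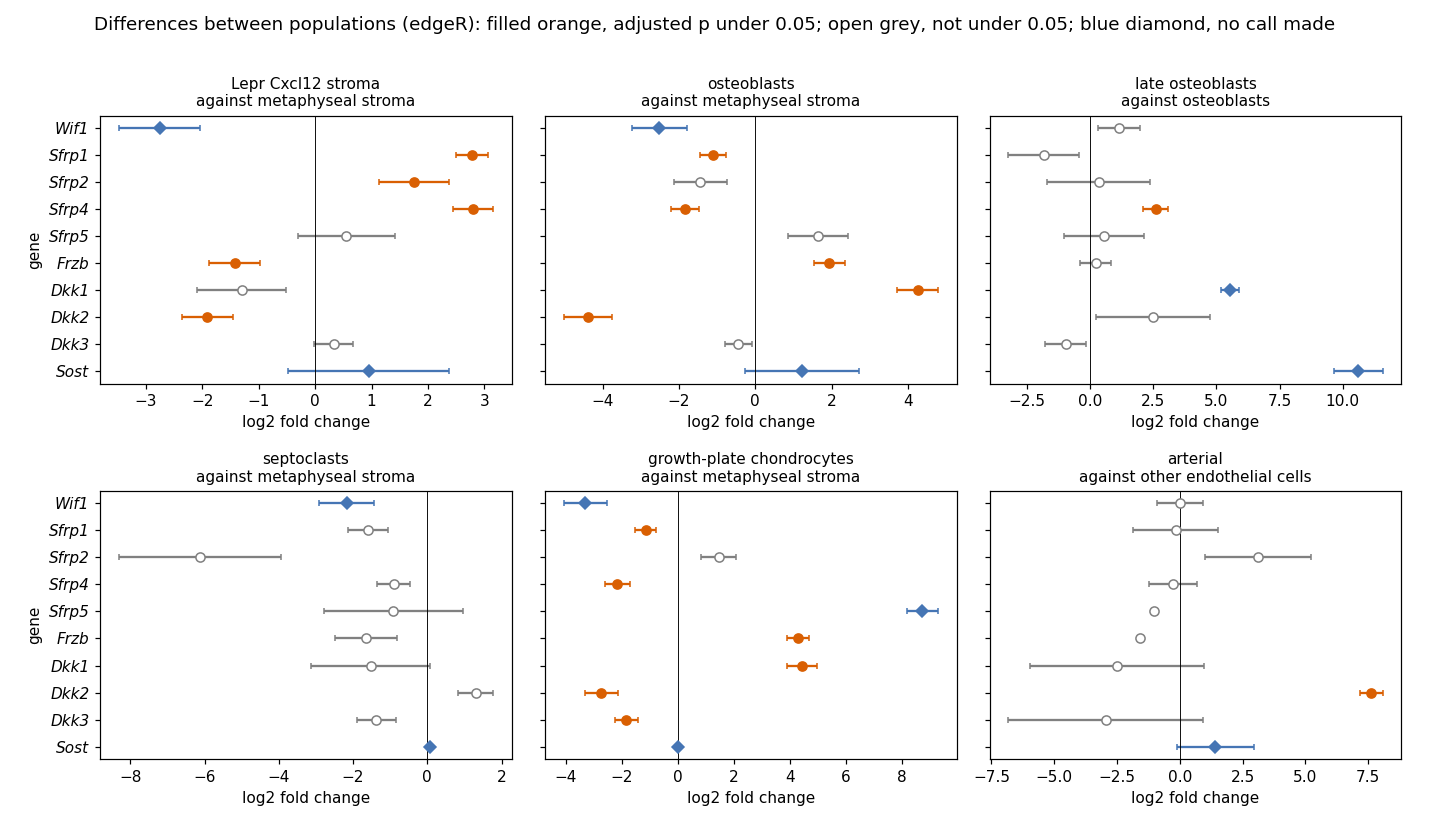
Log2 fold changes of the 10 members (horizontal axis) in 6 comparisons, with the standard error as the bar and no bar where it was above 4; filled orange points passed an adjusted p of 0.05 in edgeR, open grey points did not, and blue diamonds are values described without a test, *Sost* among them. *Sfrp1* and *Sfrp4* lie near 2.8 for *Lepr Cxcl12* stroma, *Frzb* at 4.29 for growth-plate chondrocytes, and only *Dkk2* passes among the endothelial cells.

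The *Pdgfra-GFP* chondrocytes fell into clusters in which the antagonists took different places. *Wif1* (2445 CPM) and *Frzb* (614 CPM) were both highest in a group of 68 cells with *Prg4* at 3627 CPM, in which *Sfrp5* was at 23.1 CPM. Of the 310 cells in their graph cluster 67.7% were gated as superficial chondrocytes. The 68 cells had *Matn3* at 246.5 CPM, against 2065 to 3627 CPM in the other clusters, so they resemble superficial cells more than a growth-plate zone. *Sfrp5* was highest, at 1133 CPM, in a cluster of 136 cells with the highest *Pthlh* (213 CPM), the parathyroid hormone-related protein gene of resting cartilage, and the highest *Lef1* (119 CPM), a Wnt-responsive transcription factor gene. The largest cluster (852 cells, *Ucma* at 4482 CPM) had *Wif1* at 1022, *Sfrp5* at 205 and *Dkk1* at 40.6 CPM.

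In a cluster of 81 prehypertrophic and hypertrophic cells, by *Ihh* at 356 and *Col10a1* at 3906 CPM, *Wif1* was at 67.5 CPM, *Sfrp5* at 1.96 CPM, *Frzb* at 110 CPM and *Dkk1* at 45.0 CPM. The 43 cells of this library gated as hypertrophic chondrocytes, in contrast, had 0 *Dkk1* UMIs, which allows up to 6.84 CPM by the exact interval. A cycling cluster of 104 cells (*Mki67* at 202 CPM) had *Wif1* at 237, *Sfrp5* at 47.8 and *Frzb* at 11.3 CPM. Superficial chondrocytes also split. A group of 210 cells rich in *Col2a1*, in the same graph cluster as the 68 cells above, had *Wif1* at 1395, *Frzb* at 233 and *Dkk3* at 66.9 CPM. A cluster of 250 cells rich in *Col1a1* (33290 CPM) had *Wif1* at 597, *Frzb* at 435, *Dkk3* at 175 and *Dkk2* at 34.02 CPM. Its *Col2a1* was at 473 CPM, near the 493 CPM of *Lepr Cxcl12* stroma in this library, so these cells are not typical cartilage by that marker. These values come from 1 library and have no replicate check.

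**Figure D5:**
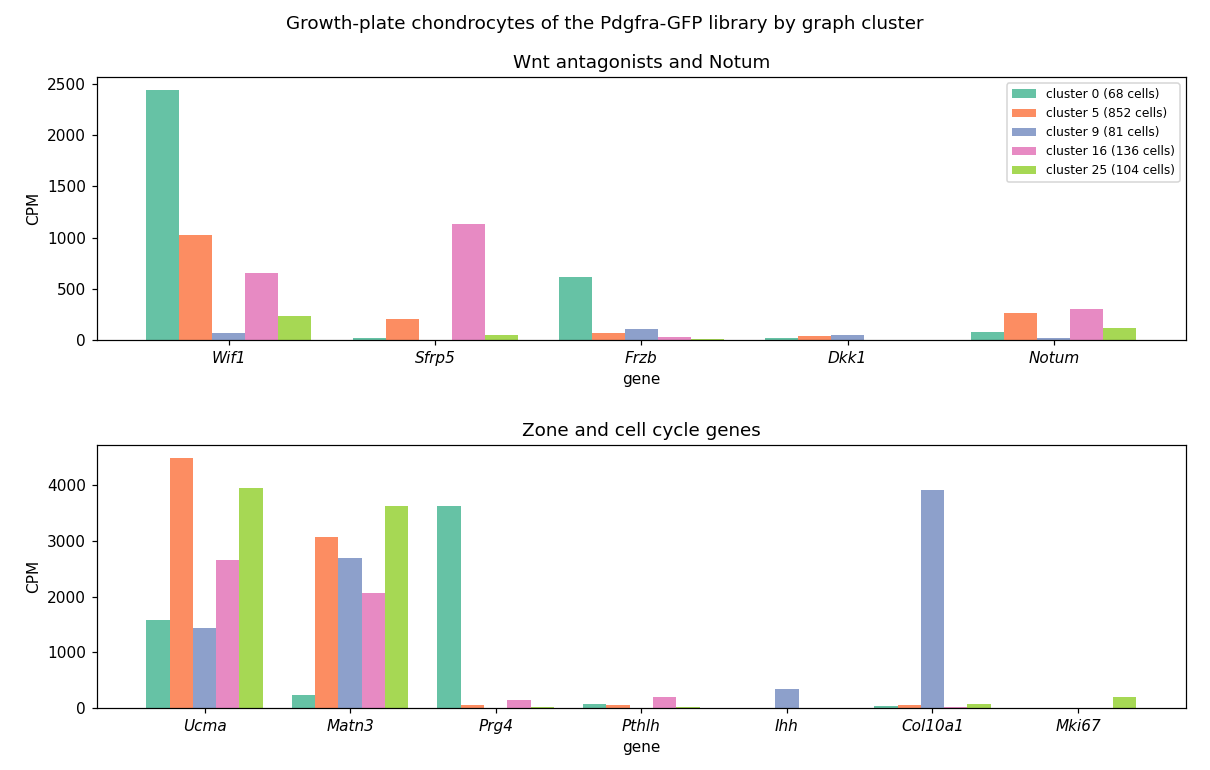
Bars give the level (CPM, linear axis from 0) of *Wif1*, *Sfrp5*, *Frzb*, *Dkk1* and *Notum* (top) and of zone and cell cycle genes (bottom) in 5 graph clusters of growth-plate chondrocytes from the *Pdgfra-GFP* library, a colour per cluster and no replicates. *Sfrp5* peaks in cluster 16 at 1133 CPM, beside the highest *Pthlh*, and *Wif1* and *Frzb* peak in cluster 0 beside *Prg4*. Most cells of cluster 0 were gated as superficial chondrocytes and are not shown here.

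*Dkk2* (chromosome 3:132085292-132180304, plus strand), whose product binds the Lrp co-receptors like Dkk1, was found mainly in arterial endothelial cells of the metaphyseal libraries. It stood at 112 (87.3 to 141), 139 (108 to 175) and 140 (108 to 179) CPM in arterial endothelial cells, which had *Gja4* at 1706 and *Gja5* at 297 CPM. The 3 libraries agreed within their counting intervals although 1 was sorted for a mesenchymal reporter. Capillary endothelial cells were at 2.41, 6.59 and 8.20 CPM, and sinusoidal endothelial cells had 0 UMIs in 381, 313 and 79 cells. The 75, 64 and 7 endothelial cells of no named vessel type were at 13.9, 12.8 and 187 (68.7 to 407) CPM, the last from 6 UMIs. Against a floor of 3 UMIs per library, arterial levels were 82.6-fold, 88.9-fold and 18.8-fold higher than sinusoidal ones, counting error aside. A *Dkk2* UMI was found in 22.7%, 19.4% and 20.7% of thinned arterial cells (median depth 5875 UMIs; 35.2%, 36.1% and 29.2% unthinned) and in 0 of 75 thinned erythroid cells (up to 4.8% by the exact interval; 1.32% unthinned), and the 10% of arterial cells with the most UMIs held 52.1%, 54.9% and 58.7% of them.

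Against capillary and sinusoidal cells together, *Dkk2* was higher by 7.63 ± 0.45 (log2 fold change ± SE; adjusted p = 4.85e-15, edgeR) in 3 of 3 libraries, and the highest adjusted p over all alternatives was 1.89e-06. It was the 1 of 9 members beside *Sost* that passed, where 14.8% of all genes did, and the median log2 fold change of these members was -0.27 beside -0.13 over all genes. Outside the endothelium *Dkk2* was low: bone-surface fibroblasts were at 42.5 CPM and tendon cells at 23.7 CPM, both seen in the *Pdgfra-GFP* library only, and mural cells at 20.1, 0 and 42.1 CPM.

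*Dkk3* (chromosome 7:112116017-112159057, minus strand) and *Sfrp2* (chromosome 3:83766321-83774316, plus strand) completed the set and peaked in different populations. *Dkk3* was at 124 (111 to 138) CPM in superficial chondrocytes, 111 (88.3 to 139) CPM in tendon cells and 68.5 (52.0 to 88.6) CPM in bone-surface fibroblasts of the *Pdgfra-GFP* library, the first 2 not separable by their intervals. Within superficial chondrocytes it was at 175 CPM in the 250 cells rich in *Col1a1*, not typical cartilage as given above. In the 210 cells rich in *Col2a1* it was at 66.9 CPM. In osteoblasts it was at 15.3, 19.3 and 16.7 CPM, and in capillary endothelial cells at 0, 0 and 2.73 CPM. *Sfrp2* had its highest level, 66.2 (49.98 to 85.9) CPM, in bone-surface fibroblasts, where its 56 UMIs came from 9 of 150 cells, and it was at 29.8 CPM in *Efemp1 Chil1* chondrocytes and 1.39 CPM in tendon cells. Bone-surface fibroblasts also carried *Sfrp4* at 584 (533 to 637) CPM, within 1 library and so without a test. The median cell had 0 *Sfrp4* UMIs, and the 15 cells with the most held 67.8% of the 494 UMIs.

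The rest of the pathway was read from 57 further Wnt genes, of which 37 were tested. In *Lepr Cxcl12* stroma 11 were higher and 10 lower than in metaphyseal stroma, with 12.5% of all genes higher and 10.4% lower, and their median log2 fold change was 0.19 beside 0.08. The receptor genes *Fzd1* (143, 146 and 95.3 against 9.50, 15.5 and 18.8 CPM; log2 fold change 2.99 ± 0.31, adjusted p = 2.31e-09, edgeR), *Fzd7* (2.44 ± 0.35) and *Fzd4* (2.25 ± 0.32) were higher there. *Rspo2*, which encodes an R-spondin that enhances Wnt signalling, was at 77.1, 85.4 and 40.2 against 4.75, 15.5 and 14.1 CPM. It passed the count filter through this stroma alone, so no test is given for it. The 3 receptor genes passed under every alternative run, with adjusted p of at most 0.00877.

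In osteoblasts 9 of the 37 genes were higher and 6 lower than in metaphyseal stroma, beside 15.6% of all genes higher and 15.8% lower, with a median of -0.24 beside -0.02. *Notum*, a secreted enzyme gene that inactivates Wnt proteins, was at 48.7, 40.1 and 33.9 against 4.75, 3.09 and 4.69 CPM (4.63 ± 0.61, adjusted p = 1.90e-07, edgeR), and *Rspo3* at 6.74, 13.6 and 9.64 against 94.97, 111 and 169 CPM (-2.94 ± 0.45, adjusted p = 2.14e-06). *Ror1*, a Wnt5a receptor gene, and *Rspo2* fell by 3.53 ± 0.49 and 3.06 ± 0.48 log2 units, the latter with an adjusted p of up to 0.42 under the alternatives. In late osteoblasts 4 of the 37 genes were higher and 6 lower than in osteoblasts, beside 3.87% and 6.47% of all genes. The median log2 fold change of the whole list was -0.35 beside -0.27. The lower genes were mostly among the 7 Wnt target and feedback genes tested, of which 4 were lower and 0 higher, with a median of -3.53. *Notum*, *Apcdd1* and *Nkd2*, which all restrain Wnt signalling, had 1 UMI each in late osteoblasts of the *Pdgfra-GFP* library (1.795 CPM, 0.0454 to 10), where osteoblasts were at 33.9, 33.3 and 29.2 CPM. In metaphyseal replicate 2 they had 0 UMIs, which allows up to 48.7 CPM by the exact interval. Osteoblasts were at 40.1, 55.5 and 27.1 CPM there, so that this library adds little for *Notum* and *Nkd2*. All 3 passed the test (adjusted p = 0.00412, 0.000321 and 0.00218, edgeR). *Wnt1*, a ligand gene of late bone cells, had 2 and 8 UMIs in late osteoblasts and 0 in all 2214 osteoblasts. Against a floor of 3 UMIs it was 100.4-fold higher in the *Pdgfra-GFP* library, counting error of the 8 UMIs aside. *Wnt1* passed the count filter through late osteoblasts alone, so no test is given. The population with the highest *Dkk1* and *Sost* thus had at most 1 UMI per fitted library of each of these 3 feedback genes. *Notum* alone of the 3 lost its call under an alternative (adjusted p up to 0.092).

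In septoclasts 3 of the 37 genes were higher and 3 lower than in metaphyseal stroma, beside 2.89% of all genes higher and 2.38% lower, with a median of -0.27 beside -0.05. *Wnt4* was at 198, 433 and 229 against 114, 139 and 38.9 CPM (1.78 ± 0.37, adjusted p = 0.00167, edgeR) and *Lef1* at 45.3, 83.5 and 19.6 against 14.3, 12.4 and 7.42 CPM (1.73 ± 0.44, adjusted p = 0.0107). *Rspo2* had 0 UMIs in septoclasts of every library and 2, 5 and 93 in metaphyseal stroma. At a floor of 3 UMIs that is 8.86-fold lower in the *Pdgfra-GFP* library, counting error aside. *Ror2* fell by 2.10 ± 0.51 log2 units. Each of these 4 calls was lost under at least 1 alternative (adjusted p up to 0.67, 0.19, 0.092 and 0.060 for *Rspo2*, *Wnt4*, *Lef1* and *Ror2*). In growth-plate chondrocytes 11 were higher and 8 lower, beside 16.5% and 16.3% of all genes, with a median of 0.17 beside -0.01. *Notum* was at 7.99, 97.7 and 219.7 CPM there (5.56 ± 0.60, adjusted p = 2.14e-09, edgeR), and *Fzd9* (4.26 ± 0.41) and *Lgr6* (4.47 ± 0.42), an R-spondin receptor gene, were higher while *Lrp4*, a sclerostin-binding co-receptor gene, was lower (-4.33 ± 0.38).

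In arterial endothelial cells 3 of the 37 genes were higher and 4 lower than in the other endothelial cells, near the share over all genes (6.74% higher and 8.02% lower), with a median of -0.46 beside -0.13. *Wnt5a* (15, 3 and 3 UMIs; 3.34 ± 0.65, adjusted p = 0.000217, edgeR) and *Tcf7*, a nuclear factor gene of the pathway (5, 10 and 8 UMIs; 3.22 ± 0.53, adjusted p = 1.60e-05), were higher, and *Wnt5b* (-3.22 ± 0.93) and *Lrp5* (-1.22 ± 0.25), the co-receptor gene, lower. *Lrp5* was at 31.5, 41.0 and 20.02 CPM in arterial, 69.4, 62.5 and 31.4 CPM in capillary and 96.5, 94.7 and 62.3 CPM in sinusoidal cells. Of these 3 endothelial populations the one with the highest *Dkk2* level had the lowest *Lrp5* value in each library, counting error aside. Under the alternatives *Tcf7* kept its call (adjusted p at most 0.0341), and *Wnt5a*, *Wnt5b* and *Lrp5* did not (up to 0.25, 0.26 and 0.13).

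Genes with a pattern like that of a member were ranked by Pearson's r of log2(CPM + 1) over 47 sums of a library and population, as a description; sums of a library share depth and free RNA. *Wif1* was most like *Olfml3* (r = 0.915), *Fap* (0.864) and *Scara3* (0.864), and *Sfrp5* most like *Pappa2* (0.944), *Ptgds* (0.920) and *Extl1* (0.916). For *Frzb* the closest genes were *Armh4* (0.912), *Ooep* (0.870) and *Anxa8* (0.867), for *Sfrp1* *Prr16* (0.846), *Eda* (0.818) and *Ccl19* (0.800), and for *Sfrp4* *Clmp* (0.845), *Plekhf1* (0.830) and *Epdr1* (0.828). *Dkk1* was most like *Mepe* (0.890), a marker that had chosen the late osteoblasts, then *Gm17322* (0.838) and *Baiap2l2* (0.833). *Dkk3* was most like *Cys1* (0.805), *Gas1* (0.779) and *Fhl1* (0.773). The values for *Dkk2* were lowest, with *Tmem255b* (0.742), *Tmod2* (0.733) and *Gm35167* (0.723).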

How the data were processed

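Single cells from bone were profiled on the 10x platform in 3 libraries. The deposited files hold raw UMI counts per gene and barcode, which the authors made with STARsolo (STAR 2.7.3a) after fastp 0.20 on mm10 with Gencode annotation and an added H2B-GFP sequence. Cells with at least 1500 genes (metaphyseal) or 1000 genes (*Pdgfra-GFP*), at most 15% mitochondrial and 30% ribosomal UMIs were kept. Scrublet marked 1.05%, 0.848% and 1.33% of cells as doublets, which were kept. A cell took the population with the best marker score (at least 0.2, 2 markers with a UMI, 1.1 times the second-best), so populations are rebuilt and may differ from the study's. Raw counts were summed per library and population (at least 10 cells), and 12599 genes were tested with edgeR 4.0.16 (TMM, quasi-likelihood test, library as block, Benjamini-Hochberg adjustment at 0.05) in R 4.3.3 and checked on simulated data. The block was used because 1 suspension gave all populations in a library; deviations of population pairs correlated at r = 0.0803 to 0.6245. DESeq2 1.42.0, other normalization, no count filter, no block, doublet removal, 30 cells per sum, a stricter gate, graph clusters (scanpy 1.11.5, resolution 1.0), a common cell filter and leaving out each library were the alternatives.

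The members and lists were chosen with earlier results of these data known. The genes named are the 10 members, for each member at 20 CPM or more in 2 libraries the 3 genes with the closest pattern, and per comparison up to 4 Wnt pathway genes with the largest change among those that passed with the same sign in every library. UMI counts per cell set the precision (median 5330 to 6426 UMIs per cell), and intervals cover counting error only. Promoter sequences are RefSeq's and positions follow the GRCm38 annotation.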

Additional observations from a re-analysis of the deposited data

Results flagged for a closer look

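*Sfrp2* differed in direction between libraries in the comparison of growth-plate chondrocytes with metaphyseal stroma. The log2 difference was -1.75 in metaphyseal replicate 1 and -2.84 in metaphyseal replicate 2, from 0 UMIs in the chondrocytes of both and 1 and 2 UMIs in metaphyseal stroma. It was 1.35 in the *Pdgfra-GFP* library, from 155 against 31 UMIs. The difference between the libraries was not tested.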

How the results depend on the processing

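No call was replaced by a call in the opposite direction under an alternative. That statement does not cover the sign of values without a call. An example is *Sfrp2* in growth-plate chondrocytes, lower in both metaphyseal libraries and higher in the *Pdgfra-GFP* library. Of the members' other results, 593 values kept their side of the threshold, 40 lost a call and 17 gained one. This tally also counts values that are described above without a test, *Sost* among them, and is no support for those. Without the library block fewer genes passed: 1624 of 2887 for *Lepr Cxcl12* stroma, 2141 of 3957 for osteoblasts, 653 of 1303 for late osteoblasts, 243 of 664 for septoclasts, 2629 of 4136 for growth-plate chondrocytes and 1133 of 1859 for arterial endothelial cells. Without the count filter 1024 genes passed for septoclasts, and graph clusters gave 1062 for arterial cells. Leaving out a library in turn gave 1757 to 2237 (*Lepr Cxcl12* stroma), 2501 to 2765 (osteoblasts), 160 to 408 (septoclasts), 2422 to 3036 (growth-plate chondrocytes) and 895 to 2059 genes (arterial cells), and 816 for late osteoblasts without metaphyseal replicate 1. The counts moved by over 1.5 times without metaphyseal replicate 1 in every comparison but that of growth-plate chondrocytes, without metaphyseal replicate 2 for *Lepr Cxcl12* stroma (1873), septoclasts (342) and arterial cells (1000), and without the *Pdgfra-GFP* library for osteoblasts, septoclasts and growth-plate chondrocytes. The cause was not tested.

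Mean levels moved with graph clusters for *Wif1* in metaphyseal stroma (1542 from 2060 CPM) and *Sfrp5* in growth-plate chondrocytes (330.6 from 218 CPM). They also moved for *Dkk1* in late osteoblasts (335.6 from 703 CPM, over 2 libraries). In superficial chondrocytes *Frzb* (396.4 from 330 CPM) and *Dkk3* (110.4 from 124 CPM) moved. Thinning moved *Sfrp2* (9.939 from 12.7 CPM) and *Dkk3* (53.39 from 48.9 CPM) in *Lepr Cxcl12* stroma and *Frzb* in superficial chondrocytes (301.7 CPM). Late osteoblasts without metaphyseal replicate 2 or the *Pdgfra-GFP* library, at 30 cells or with the stricter gate, and septoclasts at 30 cells or as graph clusters, could not be fitted, nor could bone-surface fibroblasts, found in 1 library. The 17 and 14 septoclasts and 8 and 10 late osteoblasts of the metaphyseal libraries limit what depth can show there.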

Other observations

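Metaphyseal stroma was itself uneven for *Wif1* in the *Pdgfra-GFP* library. A cluster of 473 cells with *Postn* at 462 CPM was at 3467 CPM, one of 449 cells with *Postn* at 1178 CPM at 2206 CPM, and a cycling one of 61 cells (*Mki67* at 240 CPM) at 896 CPM. *Sfrp1* was at 29.8, 4.95 and 13.9 CPM in the same clusters. In growth-plate chondrocytes of that library thinned to 2000 UMIs, *Frzb* was found in 8.95% of cells with and 9.22% of cells without a *Sfrp5* UMI. These values come from 1 library and were not tested.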
